A study of Glycine max with 16 samples.

Results

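Constant-width persistent regions are stretches of the soybean genome where LEAFY COTYLEDON1 (LEC1) was detected at 3 stages of embryo development in peaks of nearly the same width, and where a second antibody also gave a peak. They were chosen by measured values, namely the presence and the width of the authors' peaks. Peaks of the 3 stages that overlapped by at least 1 bp were merged, which gave 78759 merged regions. A region was kept when it was under 900 bp wide, held exactly 1 peak of each stage, was overlapped by a peak of the second antibody, and had stage peaks whose widths differed by at most 50 bp. In all, 6041 regions met the rule, or 7.67% of the merged regions.

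The study immunoprecipitated chromatin from whole embryos of Glycine max cultivar Williams 82 and sequenced it (ChIP-seq). Cotyledon-stage embryos (COT) came from seeds of 2.5 to 3.5 mm, early maturation embryos (EM) from seeds of 6 to 7 mm, while seeds weighing 200 to 250 mg gave the mid-maturation embryos (MM). For COT, EM and MM the antibody was raised with a GST fusion of recombinant GmLEC1, and a different one made with a GmLEC1 peptide was applied at EM. Each of these 4 groups had 2 ChIP libraries and 2 libraries of total chromatin, 16 in all. The labels name no mutant or transgenic plant, and each library mixes all cell types of the embryo. The deposited results are 1 peak list per group, with 51845 peaks at COT, 55140 at EM, 64146 at MM and 49566 for the peptide antibody at EM, called the EM peptide list here. Chromatin was fixed with formaldehyde and sheared to fragments of 100 to 500 bp. No list has a replicate, the depth of the libraries is unknown, the spread between replicates could not be measured, and no test was made: the values below describe these 4 lists.

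LEC1 is the B subunit of a nuclear factor Y complex (NF-YB), whose A subunit contacts the CCAAT sequence in DNA. In Arabidopsis it was identified through mutants that form leaf-like cotyledons, and it is known as a central regulator of embryo identity, of storage protein and oil accumulation and of chloroplast development in the seed. It works with other seed regulators, among them ABI3 and FUS3 of the B3 family and bZIP factors. A ChIP-seq peak is a stretch where immunoprecipitated fragments exceed the control, so its width depends on the fragments and on the threshold of the caller as well as on the protein. The genome sequence and gene annotation of the build named in the lists, Gmax275, were not used here, so regions are given by position and no gene or sequence is assigned to them. All positions are 1-based on that build.

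The condition on width was the selective one among regions found at every stage. Of 35935 regions called at all 3 stages, 34288 held exactly 1 peak of each stage, 33416 of these were under 900 bp wide, and 29590 of the latter also had an EM peptide peak. These 29590 are called eligible regions below. The width condition was met by 20.4% of the eligible regions, and nothing is read from that share, since the rule set it.

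Widths in the lists come in steps of 50 bp, so the rule admits regions in which the 3 widths were equal or differed by 1 step. Equal widths were found in 1024 eligible regions and a difference of 50 bp in 5017. Just outside the threshold lay 7285 regions with a difference of 100 bp, the most frequent value, and 6197 with 150 bp. Across this threshold the regions changed little at EM. The median score percentile at EM, the share of the EM list's peaks with a score at or below that of the region's peak, was 68.3 for equal widths, 68.0 for a difference of 50 bp and 67.9 for 100 bp. At COT the corresponding medians were 77.0, 76.6 and 71.9, and at MM 68.0, 68.5 and 69.7.

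**Figure D1:**
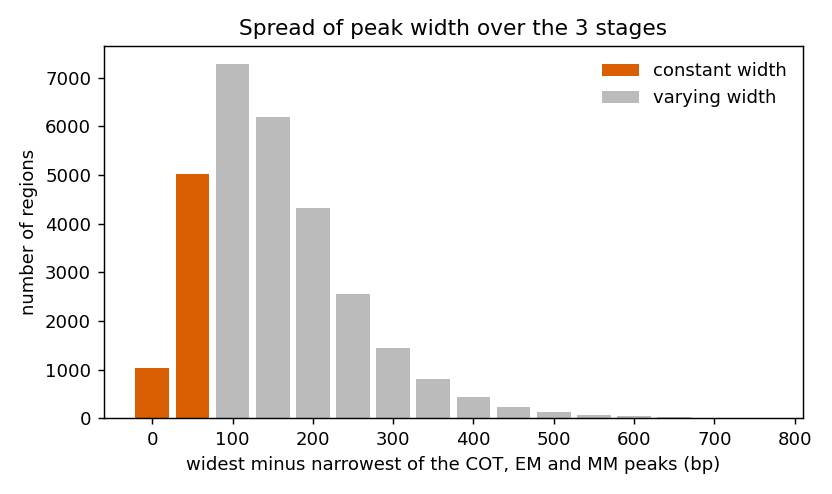
Number of eligible regions (vertical axis) by the difference in bp between the widest and the narrowest of the COT, EM and MM peaks (horizontal axis), in steps of 50 bp. The orange bars, at 0 bp (1024 regions) and 50 bp (5017 regions), are the constant-width regions. The grey bars are regions of varying width, with the highest bar at 100 bp (7285 regions).

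The 900 bp limit removed few regions that met the other conditions. There were 68 of 800 bp and 50 of 850 bp just inside it, 29 of 900 bp and 23 of 950 bp just outside it, and 97 of 900 bp or more in all. The need for an EM peptide peak removed 862 of 6903 regions (12.5%). Those 862 were narrower, with a median region width of 300 bp against 450 bp, and had median score percentiles of 40.8 at COT, 35.7 at EM and 31.1 at MM.

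The regions covered the range of widths up to the limit of the rule. The stage peaks of the 6041 regions ran from 100 to 850 bp in each list, with a median of 400 bp at COT, EM and MM. The EM peptide peaks over them, whose width the rule did not use, had a median of 350 bp and ran from 100 to 1600 bp. Regions of intermediate width met the rule most often: 26.5% of eligible regions with an EM peak of 350 bp were of constant width, against 5.34% at 100 bp and 14.6% at 850 bp. The tolerance and the width limit of the rule bear on these shares, so nothing is read from them.

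Where the widths differed by 1 step, the extra 50 bp lay most often at the later stages. EM and MM were both 1 step wider than COT in 1298 regions, MM alone was wider in 1027 and EM alone in 873. COT and MM were both wider than EM in 703, COT alone was wider in 573, and COT and EM were both wider than MM in 543. A lean to the later stages was not particular to constant width. Among eligible regions, 15245 were wider at MM than at COT by 100 bp or more, and 2686 narrower by that much. In constant-width regions the scores moved with the single step. Among regions 1 step wider at MM alone, the median difference of MM and COT percentiles was -1.34 points, and among those wider at COT alone it was -14.9 points, with -6.14 points where all 3 widths were equal. These regions were split by width, and score rises with width in the lists, so this order was set in part by the split.

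The rule fixed the widths of the peaks but not their positions, and the edges were often displaced by a step. Both edges were in place at all 3 stages in 366 regions, which is 6.06% (exact 95% interval 5.47 to 6.69, counting error only, with neighbouring regions treated as independent). The left edge alone was in place in 1212 regions (20.1%) and the right edge alone in 1249 (20.7%). Neither edge was in place in 3214 (53.2%). Of the 1024 regions of equal width, 35.7% occupied the same interval at all 3 stages, 550 were displaced by 50 bp between stages, 100 by 100 bp and 8 by more.

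These displacements were small beside the peaks themselves. The 3 midpoints lay within 50 bp of one another in 366 regions with no displacement, 2461 with 25 bp and 1740 with 50 bp, and the largest spread was 250 bp. The stretch common to all 3 peaks made up a median of 81.8% of the merged region. In regions that were wider at MM by 100 bp or more this was 58.3%, a share that varying widths lower by construction. There was no preferred direction along the chromosome: the MM midpoint lay to the right of the COT midpoint in 37.0% of regions and to the left in 36.8%.

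The displacement depended on which lists were paired. COT and MM midpoints were within 50 bp of each other in 91.2% of the regions, EM and MM midpoints in 89.0%, and COT and EM midpoints in 84.3%. The share was higher for COT and MM than for COT and EM on 20 of 20 chromosomes, and for EM and MM than for COT and EM on 20 of 20 as well. COT and MM exceeded EM and MM on 16 of 20, and not among regions with an EM peak of 500 to 850 bp, where the shares were 89.8 and 90.5%. By identical start and end, COT and MM exceeded EM and MM on 10 of 20. All chromosomes come from the same lists, so these tallies are not replicates and do not measure reproducibility. When 2 of the 3 left edges were alike, the EM edge was the one that differed in 39.5% of 3802 regions, COT in 33.6% and MM in 26.9%. For right edges these shares were 39.8, 33.8 and 26.4% of 3733.

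The EM peptide peaks, although they come from EM embryos, lay closest to the MM peaks. Their midpoints were within 50 bp of the MM midpoint in 88.3% of 6022 regions with a single peptide peak, of the COT midpoint in 83.9% and of the EM midpoint in 78.9%. Identical start and end were found with MM in 830 regions (13.8%), with COT in 704 (11.7%) and with EM in 543 (9.02%). The share of midpoints within 50 bp was higher with MM than with EM on 20 of 20 chromosomes, and with COT than with EM on 18 of 20. Here too the chromosomes share the same lists and are not replicates. The order was not particular to constant width. In regions narrower at MM the peptide midpoint was within 50 bp of the MM, COT and EM midpoints in 75.5, 69.3 and 66.5%, and in the other varying regions in 83.3, 78.9 and 75.6%. In those wider at MM the shares were 84.7, 77.9 and 78.0%, so that MM was again highest, with COT and EM nearly alike. The 2 lists from EM embryos were thus the least matched of the 6 pairs in constant-width regions. Between these 2 lists, which share the stage, antibody and experiment cannot be told apart. For the EM peptide list against COT or MM, stage cannot be told apart from antibody and experiment either. The depth of the EM libraries is unknown.

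**Figure D2:**
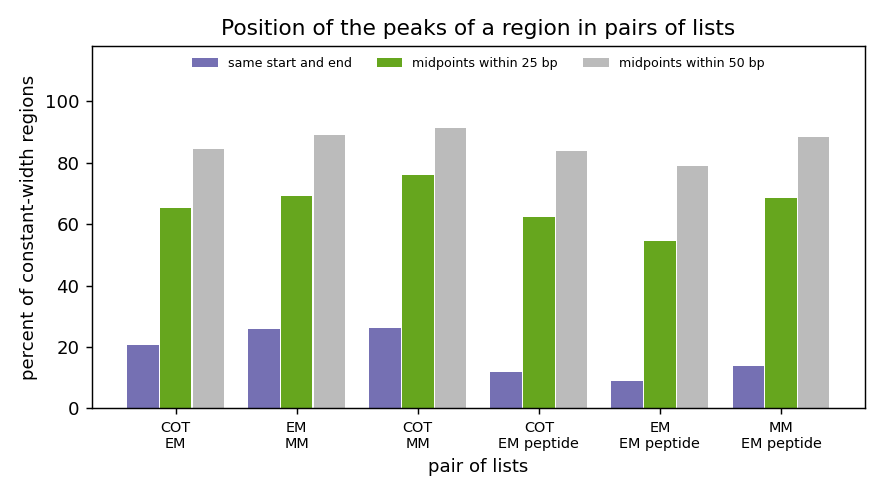
Percent of constant-width regions (vertical axis) in which the peaks of a pair of lists (horizontal axis) had the same start and end (purple), midpoints within 25 bp (green) or midpoints within 50 bp (grey). COT and MM reach 91.2% within 50 bp, and EM with EM peptide is lowest, at 78.9%. Pairs with EM peptide include 6022 regions, and the rule did not limit the peptide width, which lowers their purple bars.

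The width seen with the second antibody was a measure the rule left free. The peptide peak was within 50 bp of the EM width in 60.3% of the constant-width regions. The share was 49.6% in regions wider at MM than at COT by 100 bp or more (15245 eligible regions), 44.7% in those narrower at MM by 100 bp or more (2686), and 37.3% in the other regions of varying width (5618). It was higher in constant-width than in varying regions in 16 of 16 width classes of the EM peak, the smallest of which held 15 constant-width regions. The rule used the EM width, and a region whose EM peak departs from COT and MM is more likely to be left out, so this comparison is not independent of the choice.

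Even so, the peptide peaks were often of another width than all 3 stage peaks. In 2182 of the 6022 regions (36.2%) the peptide peak was narrower than each stage peak, in 1328 (22.1%) it was wider, and in 2512 (41.7%) it lay within the range of the 3. All 4 widths were within 50 bp in 2921 regions (48.5%). The peptide peak lay wholly inside the merged region in 4362 (72.4%). A further 19 regions held 2 peptide peaks and are left out of the peptide values.

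**Figure D3:**
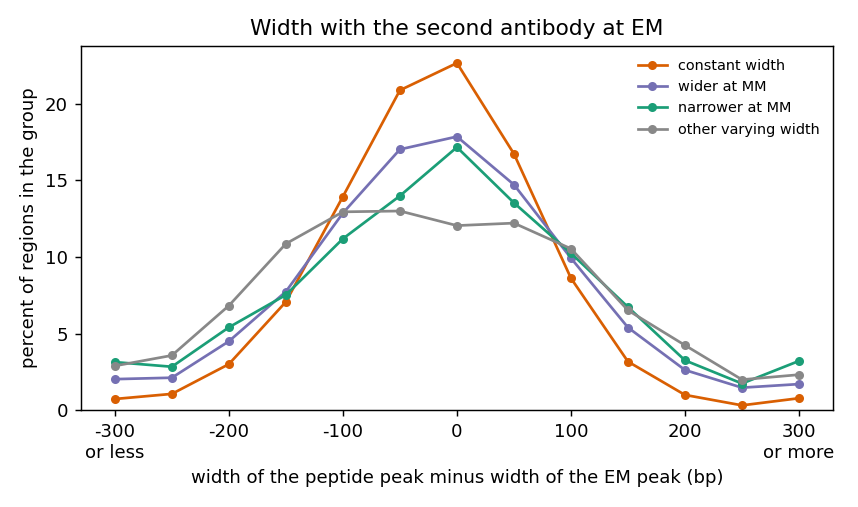
Width of the EM peptide peak minus width of the EM peak in bp (horizontal axis), as a percent of the regions of each group (vertical axis), with the outermost points collecting larger differences. Constant-width regions (orange) have the tallest centre, with 22.7% at 0 bp, against 17.9% for regions wider at MM (purple), 17.2% for those narrower at MM (green) and 12.1% for the other regions of varying width (grey).

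The same interval was called in all 4 lists in 56 regions. These were spread over 18 chromosomes, were 250 to 800 bp wide with a median of 400 bp, and had median score percentiles of 82.9 at COT, 69.2 at EM, 74.2 at MM and 73.2 among peptide peaks. The 5 examples given here were chosen after their values were seen, 4 for their scores in every list and 1 for its width. The region on chromosome 8 at 1565751 to 1566550 was 800 bp wide in each list and took place 529 by score at COT, 790 at EM, 918 at MM and 1146 among peptide peaks. That on chromosome 15 at 410101 to 410600, 500 bp wide, took places 2319, 1832, 1593 and 2344 in the same order of lists. Both were near the top of every list.

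An unmoving interval went with higher scores but did not require a leading one. The 366 regions with both edges in place had median percentiles of 82.1, 71.3, 72.8 and 71.7 for COT, EM, MM and EM peptide. In the 658 regions of equal width that were displaced, these medians were 74.2, 65.9, 63.6 and 64.8. Among examples chosen for score, that on chromosome 13 at 14962101 to 14962600 stood at percentiles 88.1, 88.4, 92.5 and 88.5. The one on chromosome 7 at 7984351 to 7984800 stood at 92.0, 87.5, 90.8 and 90.6, in the same order of lists. The second-widest of the 56, on chromosome 7 at 5990301 to 5991050, was 750 bp wide in all 4 lists but stood at percentile 82.8 at COT, 51.8 at EM, 58.4 at MM and 68.0 among peptide peaks. Width and position were identical there while the score percentile ranged widely.

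Scores were described as percentiles within a list, where 100 is the highest score, because the scale of the authors' score is not given in the sources used here. A different percentile in 2 lists of different length does not measure a change in LEC1 binding. At COT the constant-width regions ran from percentile 0.0617 to 99.97 with a median of 76.6 and quartiles of 59.4 and 88.5. The EM median was 68.0 (quartiles 48.7 and 83.6), the MM median 68.5 (49.3 and 84.1) and the EM peptide median 65.9 (45.0 and 83.0). They therefore leaned to the upper part of each list but reached almost its full range. Over all eligible regions the medians were 65.8 at COT, 66.6 at EM, 70.6 at MM and 64.8 among peptide peaks. The lean was thus shared by eligible regions, and constant-width regions stood well above them at COT only and below them at MM.

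Compared with regions of varying width, constant-width regions stood highest at COT. The COT median was 57.1 in regions wider at MM, 68.7 in those narrower at MM and 70.0 in the other varying regions. At MM the order was different, with medians of 77.2 in regions wider at MM, 68.5 in constant-width regions, 62.0 in the other varying regions and 36.3 in those narrower at MM. Score and width rise together in these lists, so the way the groups were formed bears on this order. A peak of 400 bp stands at a median percentile of 78.7 among all COT peaks, 69.3 at EM, 68.3 at MM and 70.2 among peptide peaks, which is the same order of COT against EM and MM as in the constant-width regions.

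The score was therefore also set against peaks of the same width in the same list, where 50 is the middle. On that scale the constant-width regions had medians of 59.0 at COT, 54.3 at EM, 57.9 at MM and 58.8 among peptide peaks. Regions wider at MM had 58.0, 56.5, 55.7 and 61.5, the other varying regions 51.4, 45.8, 49.8 and 52.7, and regions narrower at MM 34.4, 36.8, 42.4 and 40.4. For their width, constant-width regions thus scored a little above the middle of each list and near the regions that widened, while regions that narrowed scored below the middle. All eligible regions together had 54.7, 52.4, 53.9 and 57.4, so a place above the middle was not particular to constant width.

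**Figure D4:**
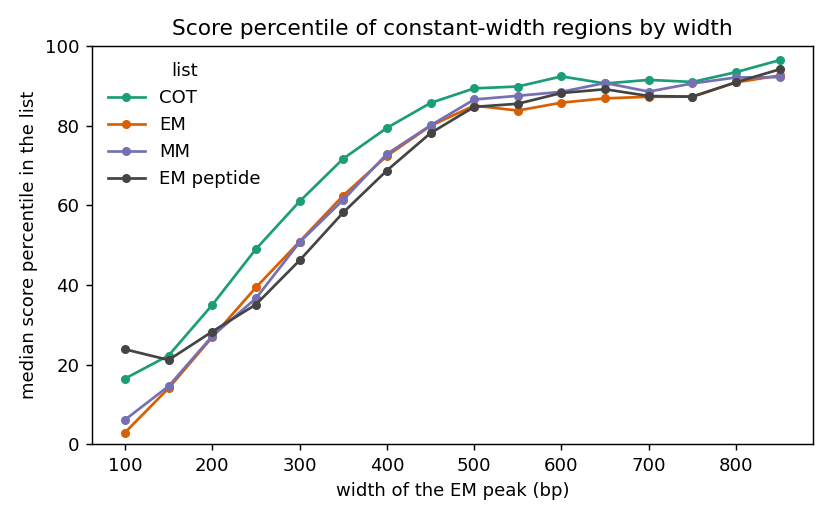
Median score percentile of constant-width regions (vertical axis) by the width of the EM peak in bp (horizontal axis), with a line for each list. The COT, EM and MM medians rise from 100 to 500 bp and change less beyond, as in the EM list from 2.92 at 100 bp to 85.0 at 500 bp and 92.6 at 850 bp. The COT line lies above the EM line at each width.

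The median percentiles at COT, EM and MM were higher in wider regions up to an EM width of 500 bp, and those of the EM peptide list from 150 bp. Constant-width regions with an EM peak of 200 bp had a median percentile of 35.0 at COT, 26.9 at EM, 27.1 at MM and 28.3 among peptide peaks. At 350 bp these medians were 71.7, 62.4, 61.4 and 58.2, and at 500 bp 89.3, 85.0, 86.6 and 84.7. Beyond that they rose little, to 93.4, 90.9, 92.1 and 90.9 at 800 bp, where 38 regions remained.

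The score percentile of a constant-width region varied from stage to stage despite the fixed width. The difference between its highest and lowest stage was at most 10 points in 1598 regions (26.5%) and over 30 points in 1054 (17.4%), with a median of 16.9 points and a maximum of 71.1. The median was 24.5 points in regions wider at MM, 34.7 in those narrower at MM and 22.4 in the other varying regions. Among regions of like mean percentile the median was lowest at constant width in all 5 classes of 20 points, and the order of the other groups varied. For mean percentiles of 40 to 60 the medians were 25.1 points at constant width, 37.6 in regions wider at MM, 41.6 in those narrower at MM and 30.8 in the other varying regions. For 60 to 80 they were 19.9, 26.7, 25.8 and 22.3 points in the same order, and for 80 to 100 all 4 groups lay between 9.52 and 10.9 points. Since widths enter the rule and go with scores, a smaller range at constant width was set in part by the choice.

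The likeness of scores between lists was compared before and after taking width into account. Across regions, which are not independent replicates and share libraries, Spearman's rho of the percentiles of COT and MM was 0.777 over the 6041 constant-width regions and 0.535 over the 23549 varying ones. Using percentiles among peaks of equal width, rho was 0.427 and 0.410. For COT and EM it was 0.735 against 0.540 before and 0.393 against 0.377 after. For EM and MM it was 0.789 against 0.740 before and 0.454 against 0.473 after, and for MM and EM peptide 0.773 against 0.755 before and 0.389 against 0.462 after. At equal width rho was higher in constant-width regions for these pairs of COT with EM or MM and lower for the other 4 pairs of lists, in each case without a test.

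Leading constant-width regions made up a minority. In the highest-scoring 10% of each list stood 1300 of the 6041 regions at COT (21.5%), 864 at EM (14.3%), 910 at MM (15.1%) and 788 among peptide peaks (13.0%). Of all 29590 eligible regions these shares were 14.9% at COT, 15.7% at EM, 18.0% at MM and 14.3% among peptide peaks, so constant-width regions stood above that background at COT and below it in the other 3 lists. In all 4 lists at once 328 regions were in the highest-scoring 10%, with region widths of 400 to 850 bp and a median of 600 bp. At the other end, 538 regions lay among the lower-scoring 50% of all 4 lists, with a median width of 250 bp. Among the higher-scoring 50% of all 4 lists stood 3376 regions (56.1% of the 6022 with a single peptide peak). For these counts over all 4 lists the shares of eligible regions were not computed, so they are not read as particular to constant width. The regions thus span strong and weak peaks, and a region may be persistent and of constant width with low scores throughout.

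The 5 constant-width regions with the highest score percentile in their weakest list lay on chromosomes 16, 17, 8, 10 and 6. The first, on chromosome 16 at 1413401 to 1414250, took place 146 at COT, 36 at EM, 247 at MM and 296 among peptide peaks, with widths of 850, 850, 800 and 750 bp. It also had the full 850 bp that the rule allows. The second, on chromosome 17 at 6212101 to 6212700, took places 207, 419, 183 and 415 with widths of 500, 550, 550 and 500 bp.

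The third was also one of the regions whose edges did not move. On chromosome 8 at 19093901 to 19094500, the COT, EM and MM peaks were the same 600 bp, and the EM peptide peak was 500 bp wide from the same left edge. It took places 26, 108, 342 and 429 in the order COT, EM, MM and EM peptide. The fourth, on chromosome 10 at 47967101 to 47967800, took places 324, 440, 679 and 81. The fifth, on chromosome 6 at 7407651 to 7408350, was 650 bp wide in each of the 4 lists and took places 459, 39, 685 and 469.

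The leading region of each other chromosome was chosen by the same measure, which favours high scores in all lists, but the order of the lists differed. On chromosome 2 at 4495751 to 4496350 the peptide antibody gave place 12, against 866 at COT, 828 at EM and 388 at MM. On chromosome 19 at 44090251 to 44091100 the COT peak took place 45, against 1257 at EM, 1852 at MM and 1243 among peptide peaks. On chromosome 1 at 39316401 to 39316950 it was the EM peak, in place 79, ahead of places 180 at MM, 221 at COT and 1807 with the peptide antibody. Which list gave the best place thus differed from region to region.

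On several chromosomes the places lay closer together. The region on chromosome 5 at 4535351 to 4536000 took places 666, 1403, 829 and 924 for COT, EM, MM and EM peptide, and that on chromosome 14 at 48644801 to 48645400 places 2195, 2097, 2869 and 1857. On chromosome 3 at 32135851 to 32136350 the COT, EM and MM peaks were the same 500 bp, with places 1668, 2116, 997 and 1983. Of the leading regions, that of chromosome 14 stood lowest, with a percentile of 95.5 in its weakest list.

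The remaining leaders had their best place in different lists. On chromosome 4 (5028151 to 5028850) it was 143 at MM. EM gave the best place on chromosome 7 (391551 to 392200, place 83) and chromosome 9 (4407151 to 4407700, place 192). COT did so on chromosome 12 (35532301 to 35532950, place 682), chromosome 13 (31648351 to 31649200, place 136) and chromosome 15 (10399101 to 10399700, place 277). The EM peptide list did so on chromosome 11 (33306251 to 33306850, place 234), chromosome 18 (53151051 to 53151700, place 155) and chromosome 20 (47492251 to 47493050, place 76).

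**Figure D5:**
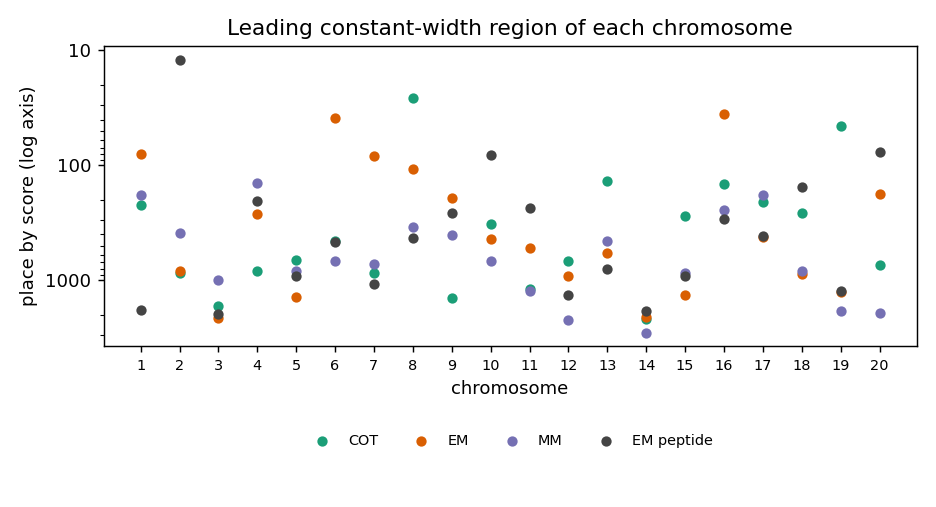
Place by score in each list (vertical axis, log scale, with the highest score on top) of the leading constant-width region of each chromosome (horizontal axis), with a point for each of the 4 lists. Chromosome 16 has its points between places 36 and 296, while on chromosome 2 they run from 12 to 866.

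At the upper extreme of width stood 50 regions of 850 bp, with a median percentile of 91.8 at MM and 88.7 among peptide peaks. By the percentile in the weakest list, the first 3 of them were the region on chromosome 16 given above, that on chromosome 13 at 31648351 to 31649200 and that on chromosome 18 at 57415801 to 57416650. The latter took place 26 with the peptide antibody, 223 at EM, 1079 at MM and 1149 at COT. The narrowest of equal width was on chromosome 14 at 42680651 to 42680750, where COT, EM and MM peaks were the same 100 bp. It stood at percentile 1.73 at COT, 15.0 at EM and 7.45 at MM, and the peptide peak over it was 200 bp wide at percentile 26.4. Of those of 150 bp, the first by the same measure were one on chromosome 13 (35846001 to 35846150) and one on chromosome 2 (10240101 to 10240250), both under 300 bp peptide peaks. In these 3 regions the peptide peak was wider than the stage peaks by 100 or 150 bp.

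Some regions changed place by most of a list between stages while their width stayed within 50 bp. On chromosome 7 at 15980801 to 15981350 the percentile was 15.7 at COT, 50.3 at EM and 82.4 at MM, with widths of 400, 350 and 400 bp and a peptide percentile of 65.1. On chromosome 20 at 43145451 to 43145850 it was 2.57 at COT, 49.9 at EM and 67.5 at MM, with 250, 300 and 300 bp. On chromosome 19 at 3616351 to 3616700 it was 35.7, 79.4 and 90.8. In each of these 3 the percentile was lowest at COT and highest at MM, with EM and EM peptide between them.

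The opposite order occurred as well. On chromosome 4 at 453501 to 453900 the percentile was 84.5 at COT, 44.0 at EM and 18.7 at MM, with widths of 350, 300 and 350 bp. On the same chromosome at 5232351 to 5232700 it was 80.8, 40.6 and 21.8. The third, on chromosome 15 at 9594051 to 9594500, had 81.1 at COT, 21.6 at EM and 22.7 at MM. These 6 were picked as the extremes among 6022, and with 1 list per stage their size cannot be set against a spread between replicates. The median difference of MM and COT over all constant-width regions was -5.64 points.

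The 2 antibodies at EM differed most at regions with a 100 bp peptide peak. On chromosome 16 at 6732401 to 6732750 the EM peak was 350 bp at percentile 85.7 and the peptide peak 100 bp at percentile 3.65. On chromosome 12 at 39385151 to 39385650 the EM peak was 500 bp at 86.9 and the peptide peak 100 bp at 5.35. The third, on chromosome 17 at 1340251 to 1340700, had 300 bp at 80.3 against 100 bp at 0.0282. Over the 6022 regions the median difference of EM peptide and EM percentiles was -0.839 points, and 26.8% of regions differed by over 20 points.

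Constant-width regions lay along the chromosomes like the other eligible regions. On the 20 chromosomes, 67.6% of 6010 lay in the outer 20% at either end and 22.1% between 25 and 75% of the length, against 68.8 and 21.8% of varying regions. Among eligible regions, constant-width ones made up 18.8 to 22.4% in each 20th of the chromosome length. By chromosome the share was lowest on chromosome 16, at 18.1% (181 of 998, exact 95% interval 15.8 to 20.7). It was highest on chromosome 4, at 22.4% (310 of 1385, 20.2 to 24.7). These are the extremes of 20 chromosomes, and the overlap of their intervals does not show that the shares are alike. The intervals treat neighbouring regions as independent, and the difference was not tested. No chromosome was without them, and 31 more lay on 14 scaffolds.

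Per Mb of sequence, chromosome 13 held the most constant-width regions, with 10.1, and chromosome 16 the fewest, with 4.78. Chromosome 13 also had the most eligible regions (2196) and chromosome 16 the fewest (998). Of these, 21.1 and 18.1% were of constant width, against 20.4% of all eligible regions. On chromosome 13, 55.0% of the constant-width regions lay between 25 and 75% of the length, and on chromosome 4 10.3%. The other eligible regions of these chromosomes were not compared in this respect. The 1 Mb window with the most constant-width regions lay on chromosome 6 at 3000001 to 4000000 and held 32, which is 27.8% of its 115 eligible regions. Windows on chromosome 17 at 2000001 to 3000000, 4000001 to 5000000 and 8000001 to 9000000 held 27, 26 and 26, and one on chromosome 10 at 2000001 to 3000000 held 26. In these windows the shares of eligible regions ran from 26.5 to 29.9%, against 20.4% of all eligible regions. The windows were picked for their high counts, which favours high shares. Of 956 windows, 142 held no constant-width region, among them 28 that held no eligible region.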

How the data were processed

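ChIP-seq peak lists of LEC1 in soybean embryos were analysed, 1 for each stage or antibody. The deposited files give for each peak its position, its name and the authors' score, whose scale is not given in the sources used here, nor are the peak caller, its threshold or whether replicates were pooled. Per the submitters' processing notes, the tools included Bowtie (version 0.12.7) and SAMtools (version 0.1.19). Depth is unknown, so no interval based on depth is given. Groups were taken from the sample titles.

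Starts were multiples of 50 bp and each end was taken as the final base that a peak covers. Merging, selection and all summaries were made in Python 3.11.15 with pandas 2.3.3 and SciPy 1.17.1, and the selection code was tested on simulated data. Score percentiles use the mean rank of ties. Chromosome length was taken as the last peak end over all lists. The members, groups and named regions were chosen with earlier results of these data known. Regions named are the leading one of each chromosome by the lowest of the 4 percentiles, the 5 leading of all, the 3 widest and the 3 narrowest of equal stage width (ties ordered by that lowest percentile), the 3 largest rises and falls from COT to MM, the 3 closest pairs and the 3 largest differences between antibodies; others are said to be chosen after their values were seen. A gene table of another assembly was not used, and the planned description of sequences and gene lists was not run. Exact (Clopper-Pearson) 95% intervals cover counting error only. No test was made, because no list is replicated and the rule used peak presence and width.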

Additional observations from a re-analysis of the deposited data

How the results depend on the processing

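The count of regions, the share with unmoved edges, the 4 median percentiles, the share in the outer 20% and the share of peptide intervals identical to EM were recomputed under 8 alternatives, and 4 of these values under 1 more chosen after seeing the data. Of 68 recomputed values in all, 44 stayed within the interval of the reported value (for counts, within 1.5 times) and 24 moved. Some of those 44 could not move. Dropping the peptide condition adds no peptide values, and the share in the outer 20% never included scaffolds. With equal widths required, 1024 regions met the rule, 35.7% with unmoved edges and 10.2% with a peptide interval identical to EM. With a tolerance of 100 bp it was met by 13326 regions, 2.75% with unmoved edges, and the COT median was 74.2. With no peptide peak required, the COT, EM and MM medians were 73.4, 64.6 and 64.3. With 50% reciprocal overlap the COT, EM, MM and EM peptide medians were 77.8, 69.1, 70.0 and 68.1, and with lists of equal length 78.2, 69.9, 70.6 and 68.2. In the higher-scoring 50% of each list 3385 regions met the rule, with medians of 86.5, 80.8, 81.6 and 80.4, 7.27% with unmoved edges and 10.1% with a peptide interval identical to EM. Stricter lists raise medians by construction. The COT median was the highest under each alternative. The share in the outer 20% did not move in any, though without scaffolds it could not. Without the width limit or the scaffolds no value moved, nor with places taken from the number in the peak name, the added alternative. In midpoints within 50 bp, EM with EM peptide was the lowest of the 6 list pairs and COT with MM the highest under those 8 alternatives, while pairs between them changed order. With equal widths required, COT and EM (93.4%) exceeded MM and EM peptide (88.3%), and with 50% reciprocal overlap MM and EM peptide (90.4%) exceeded EM and MM (89.9%). No replicate could be left out and no paired analysis was possible because each group has 1 list and no values per replicate.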

Other observations

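Constant-width regions also occurred next to one another. The median distance to the nearest other constant-width region was 28275 bp, and 238 (3.94%) had one within 1 kb. In the order of merged regions along a chromosome, 451 runs of 2 neighbours, 25 of 3 and 1 of 4 were made up of constant-width regions alone. A further 5060 constant-width regions had no such neighbour. Constant-width regions were 7.67% of the merged regions, a share that alone gives some neighbours. How many it gives was not computed, so nothing is read from these counts. The run of 4 lay within 14250 bp of chromosome 5, at 4078551 to 4092800, and was picked after its values were seen. Its first region, at 4078551 to 4079200, took place 154 at COT, 11048 at EM, 1836 at MM and 2994 among peptide peaks. The second, at 4083901 to 4084450, took places 2323, 2668, 151 and 4737. The remaining ones, at 4089901 to 4090350 and 4092501 to 4092800, stood lower, at COT percentiles of 79.1 and 52.7.

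The closest pairs were 100 bp apart, and there were 3. On chromosome 17, at 38979951 to 38980750 and 38980851 to 38981400, both partners scored high, with COT places 1312 and 2000. On chromosome 5, at 3719651 to 3719950 and 3720051 to 3720500, the partners had COT percentiles of 64.4 and 67.1 and EM percentiles of 22.2 and 82.8. The third pair, on chromosome 12 at 35247301 to 35247950 and 35248051 to 35248500, had EM percentiles of 72.7 and 49.3. In each pair the 4 lists all had separate peaks for the 2 partners.

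On chromosome 5 at 24140301 to 24140500 lay the one region in the lowest 10% of all 4 lists, with places 50049 at COT, 54660 at EM, 59976 at MM and 45122 among peptide peaks. The largest displacement, 250 bp between stage midpoints, was found on chromosome 8 at 18709051 to 18709650, where peaks of 350, 300 and 350 bp stood at percentiles of 21.1, 24.3 and 18.7. The stretch common to its 3 stage peaks was 100 bp of 600 bp. Both were picked after their values were seen.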
